A study of Homo sapiens with 12 samples.

Results

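The comparison described here sets TK6 cells given 4 µg/mL 3-methylcholanthrene (3-MCA; the high group) against TK6 cells given 0.04 µg/mL (the medium group), both for 24 h. It was defined by the concentration in the sample titles alone, and it uses 6 of the 12 RNA-seq libraries of the study, 3 on each side. The other 6 libraries came from cells at 0 µg/mL (control) and 0.0004 µg/mL (low), also at 24 h. They entered the model to share 1 estimate of the spread between libraries, and they also entered the filter on low counts and the scaling. Their values are given beside some results below. TK6 is an established human lymphoblastoid line that grows in suspension and is widely used in mutation assays, and the labels name no further treatment or carrier for any group. Whether the replicates were grown as separate cultures is not stated in the labels, and the p-values below therefore reflect only how far these libraries differ, which can be a technical spread.

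3-MCA is a polycyclic aromatic hydrocarbon. In cells with an active aryl hydrocarbon receptor (AHR) it binds this receptor, which moves to the nucleus, pairs with ARNT and switches on genes such as CYP1A1. The enzymes these genes encode turn the hydrocarbon into reactive products that bind DNA, and bulky DNA adducts can activate p53, nucleotide excision repair and damage-tolerant DNA synthesis. The step from medium to high therefore compares concentrations at which such a response could differ in size.

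The counts scaled to a common library total (CPM) of B cell genes matched the label of the cells. In such bulk libraries, fewer cells that express a gene and less of its RNA per cell cannot be told apart. Of 10 B cell markers 9 stood above 10 CPM in all 6 libraries, with MS4A1, which encodes CD20, between 216 and 288 CPM. The exception was BLK, a B cell kinase, at 0 to 0.303 CPM. The summed level of the 10 markers was 2622 to 2996 CPM in medium and 2337 to 3396 CPM in high. All 5 erythroid markers were at 0, as were CD8A, CD247 and GNLY of the 6 T and NK cell markers, S100A8 and MPO of the 6 myeloid markers, and COL3A1, DCN, EPCAM and KRT19 of the 6 stromal and epithelial markers. The myeloid marker S100A9 was above 10 CPM in all 6 libraries, at 12.7, 10.8 and 13.5 CPM in medium and 10.8, 10.3 and 10.2 CPM in high. NKG7, of the T and NK cell markers, had 4.26, 6.67 and 6.41 CPM in medium and 2.98, 6.75 and 4.08 CPM in high. The summed levels of these other lists were 5.129 to 6.821 CPM in medium and 3.659 to 7.258 CPM in high for T and NK cells, and 13.19 to 15.17 and 11.44 to 14.58 CPM for myeloid cells. Those of stromal and epithelial cells were 4.273 to 5.566 CPM in medium and 5.815 to 8.366 CPM in high, where the collagen gene COL1A1 had 3.82, 2.2 and 3.30 CPM in medium and 4.4, 5.29 and 4.6 CPM in high.

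The high libraries were deeper and less alike than the medium ones. They held 14756863, 19841387 and 11520939 counts in replicates 1 to 3, against 9163368, 13194442 and 10296847 in medium. The median SD of a gene's log2(CPM + 1) was 0.234 in high and 0.147 in medium. The root mean square log2 difference between 2 libraries was 0.409 to 0.651 within high, 0.378 to 0.419 within medium and 0.378 to 0.553 between the groups, so that high replicates 2 and 3 lay farther apart than any high library from any medium library. High replicate 2 had the smallest share of mitochondrial 16S ribosomal RNA of the 6 libraries and high replicate 3 the largest, at 1.45% and 7.96% of counts.

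No gene passed the test between 0.04 and 4 µg/mL. Of 12030 genes tested with edgeR's quasi-likelihood test, 0 (0%) had a Benjamini-Hochberg adjusted p below 0.05, and the smallest adjusted p was 0.478. At an unadjusted p below 0.05 there were 225 genes (1.87%), of which 106 (0.881%) lay higher in high and 119 (0.989%) lower. The median log2 difference of all tested genes was 0.0044, with 6160 genes above 0 and 5870 below. For 9021 genes (75%) the 95% interval of the difference lay within 2-fold either way, and for 6299 (52.4%) within 1.5-fold. The spread of the differences narrowed with the level of the gene, as the plot of all tested genes shows.

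**Figure D1:**
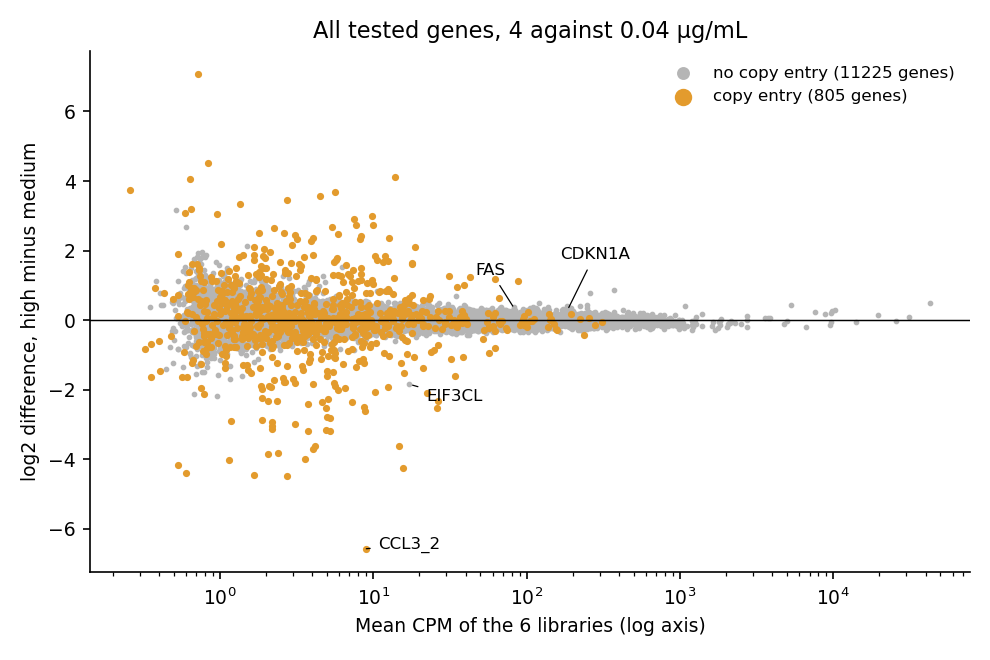
Log2 difference between 4 and 0.04 µg/mL 3-MCA (vertical axis) against the mean CPM of the 6 libraries (log axis) for the 12030 tested genes; orange points are the 805 genes that have a second entry in the table or lie on an alternate contig. The differences lie around 0, and the orange points spread more widely (median absolute log2 difference 0.484 against 0.107 for the other genes).

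The CPM of all 3 high libraries lay above those of all 3 medium libraries for 262 genes (2.18%) and below them for 458 genes (3.81%), together 720 (5.99%). The lean towards lower values followed the scaling: after a correction for library composition (TMM factors), 355 genes lay above and 371 below, which is 48.9% above in place of 36.4%. Of the 12030 tested genes, high was below all 9 other libraries of the study for 48 in CPM and for 25 after the correction, 24 of them in both. Among those 24 were ARFRP1, XRCC3, LRWD1, TRAF2 and PAXX, an end-joining factor at a log2 difference of -0.40 that was chosen after its values were seen. High was above all 9 others for 11 genes in CPM and 24 after the correction, with 8 in both, among them RPS29 and GBP1. Medium was above all 9 others for 16 genes in CPM and 22 after the correction, with 13 in both. Among those 13 were EIF3CL, GTF2H2C_2, GPI, RPL13A and IFFO1. Medium was below all 9 others for 21 genes in CPM and 16 after the correction, with 14 in both. CAMK1, LOC107987142 and PPM1D were among those 14. Each of these counts is a small part of the 12030 tested genes. How many genes would show such an order between libraries by chance was not tested, so the patterns are descriptions only.

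The AHR pathway showed no difference that these counts could resolve. AHR itself, its repressor AHRR and CYP1B1, a hydrocarbon-metabolising cytochrome P450, had 0 counts in all 6 libraries, where 3 counts, the floor used for an undetected gene, equal 0.151 to 0.327 CPM. A count of 0 does not show that a gene was silent here, because the sources used here do not give how reads shared between overlapping genes were counted. CYP1A1 (chr15:74719542-74725528, GRCh38.p14, minus strand), the P450 gene by which AHR activity is most often read, stood at 0, 0.152 and 0.388 CPM in medium and 0.136, 0 and 0.347 CPM in high. The groups overlapped fully at these few counts, which were too low for the test. TIPARP (chr3:156674590-156706770, plus strand), an ADP-ribosyltransferase gene induced by AHR, was 1 of 6 AHR battery members that could be tested. It measured 29.5, 31.3 and 31.7 CPM in medium and 32.1, 36.5 and 31.3 CPM in high, so that high replicate 3 fell inside the medium range. The log2 difference was 0.14 ± 0.13 (SE), with a 95% interval from -0.15 to 0.42 (unadjusted p = 0.319, adjusted p = 1, edgeR).

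The 250 bases before the start of these 2 genes are shown because a window of each holds the core of the AHR-ARNT binding motif, GCGTG, so that the sequence and the flat counts can be seen side by side. They come from RefSeq (GRCh38.p14) and are written 5′ to 3′ on the strand of the gene, ending at the base before the start, with the core in capitals, which reads CACGC where it lies on the opposite strand. For TIPARP the window of its first start is given, and those of its 2 other starts in the table hold 0 cores.
CYP1A1: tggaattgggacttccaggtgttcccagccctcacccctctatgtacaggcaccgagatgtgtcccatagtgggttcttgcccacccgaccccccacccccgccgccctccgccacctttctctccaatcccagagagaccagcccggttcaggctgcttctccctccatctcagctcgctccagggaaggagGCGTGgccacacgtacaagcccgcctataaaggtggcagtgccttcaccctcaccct
TIPARP: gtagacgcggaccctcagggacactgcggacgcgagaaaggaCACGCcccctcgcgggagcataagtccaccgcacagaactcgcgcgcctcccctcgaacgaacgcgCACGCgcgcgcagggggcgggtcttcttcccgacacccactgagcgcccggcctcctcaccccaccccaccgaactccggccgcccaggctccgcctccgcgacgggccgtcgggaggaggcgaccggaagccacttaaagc
The window of CYP1A1 (chr15:74725529-74725778) holds 1 core, which begins 57 bases before the start. That of TIPARP (chr3:156674340-156674589) holds 2, which begin 208 and 142 bases before it. Of 35116 windows of this length 32.2% hold the core on either strand, and a match is a description of the letters, not of binding.

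NQO1, a quinone reductase shared by the AHR and NRF2 programmes, varied more within high than between the groups. It stood at 121, 156 and 153 CPM in medium and 122, 184 and 108 CPM in high, a log2 difference of -0.03 ± 0.23 (SE; unadjusted p = 0.898, edgeR). The 2 lowest values of the 3 in high were replicates 1 and 3, and the direction turned with the library left out. Of 22 listed AHR battery genes 6 had enough counts to test, with 2 above medium and 4 below. Of these 6, 0 were without overlap, against 5.99% of all genes in either direction. Their median log2 difference was -0.10. That median was -0.31 without high replicate 2, -0.02 without high replicate 1, -0.04 without high replicate 3 and, without medium replicates 1, 2 and 3, -0.16, -0.03 and -0.07. The member with the smallest p, the amino acid carrier gene SLC7A5, differed by -0.17 ± 0.11 (unadjusted p = 0.157).

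Genes of the receptor complex and of conjugation were also near their medium level. Of 17 tested AHR cofactors 10 lay above and 7 below, with a median of 0.03, and the widest difference was that of the kinase gene SRC, at 2.84, 3.79 and 4.37 CPM in medium and 9.96, 13.8 and 2.34 CPM in high, where the groups overlapped. That gene has a second entry in the table, so its level is uncertain. Of 16 tested genes of glutathione transfer and conjugation 7 lay above and 9 below (median -0.03). SULT1A1, a sulfotransferase that conjugates phenols, had an unadjusted p of 0.0129 with 22.8, 18.9 and 17.7 CPM in medium and 25.3, 22.7 and 31.0 CPM in high (log2 0.43 ± 0.15, adjusted p = 1, edgeR). High replicate 2 and medium replicate 1 overlapped there by a small margin. Of 23 tested NRF2 targets 10 lay above and 13 below (median -0.03), and malic enzyme ME1, whose p was the smallest, differed by 0.18 ± 0.12.

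Several p53 target genes were a little higher at 4 µg/mL in every library, although no member passed the test over all genes. Of 37 tested p53 targets 26 lay above medium and 11 below, with a median log2 difference of 0.07 where all tested genes had 0.0044. The 5 members with an unadjusted p below 0.05 were CDKN1A, FAS, TRIM22, BTG2 and PPM1D, and the same 5 (13.5% of those tested, against 2.18% of all genes) had every high library above every medium one in CPM. All adjusted p-values were 1 (edgeR). No member lay below without overlap, against 3.81% of all genes.

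CDKN1A (chr6:36676463-36687332), the cyclin-dependent kinase inhibitor p21 and the best known p53 target, measured 169, 161 and 175 CPM in medium and 203, 183 and 209 CPM in high. The groups did not overlap, and the log2 difference was 0.26 ± 0.11 (SE), a 1.2-fold higher level (unadjusted p = 0.0451, edgeR). Its mean was 169 CPM in control and 187 CPM in low, where 1 library stood above every high library. FAS (chr10:88964050-89017059), the death receptor gene, measured 80.3, 76.2 and 70.9 CPM in medium and 91.6, 84.4 and 101 CPM in high, with a log2 difference of 0.31 ± 0.09 (unadjusted p = 0.00524). TRIM22 (chr11:5689790-5710863), which encodes an antiviral ubiquitin ligase, measured 38.6, 36.5 and 34.7 CPM in medium and 47.0, 46.3 and 41.8 CPM in high (log2 0.32 ± 0.09, unadjusted p = 0.00442). In each of these 3 genes the groups did not overlap, and the gap between them was smaller than the range within either group.

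BTG2, an antiproliferative p53 target, had 17.6, 18.3 and 18.1 CPM in medium and 24.1, 21 and 21.6 CPM in high (log2 0.33 ± 0.13, unadjusted p = 0.0319). PPM1D, the phosphatase WIP1 that damps p53 signalling, is added here after its values were seen. It had 30.2, 30.3 and 27.0 CPM in medium and 32.7, 32.4 and 41.9 CPM in high (log2 0.31 ± 0.13, unadjusted p = 0.0388), and its medium libraries lay below all 9 others of the study. The control means of TRIM22 (42.9 CPM), BTG2 (20.9 CPM) and PPM1D (32.1 CPM) lay between the medium and high means. MDM2, the ubiquitin ligase that degrades p53, did not share the pattern. It had 121, 131 and 114 CPM in medium and 131, 149 and 84.9 CPM in high, with high replicate 3 lowest of the 6 and high replicate 2 highest (log2 0.01 ± 0.22, unadjusted p = 0.951).

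**Figure D2:**
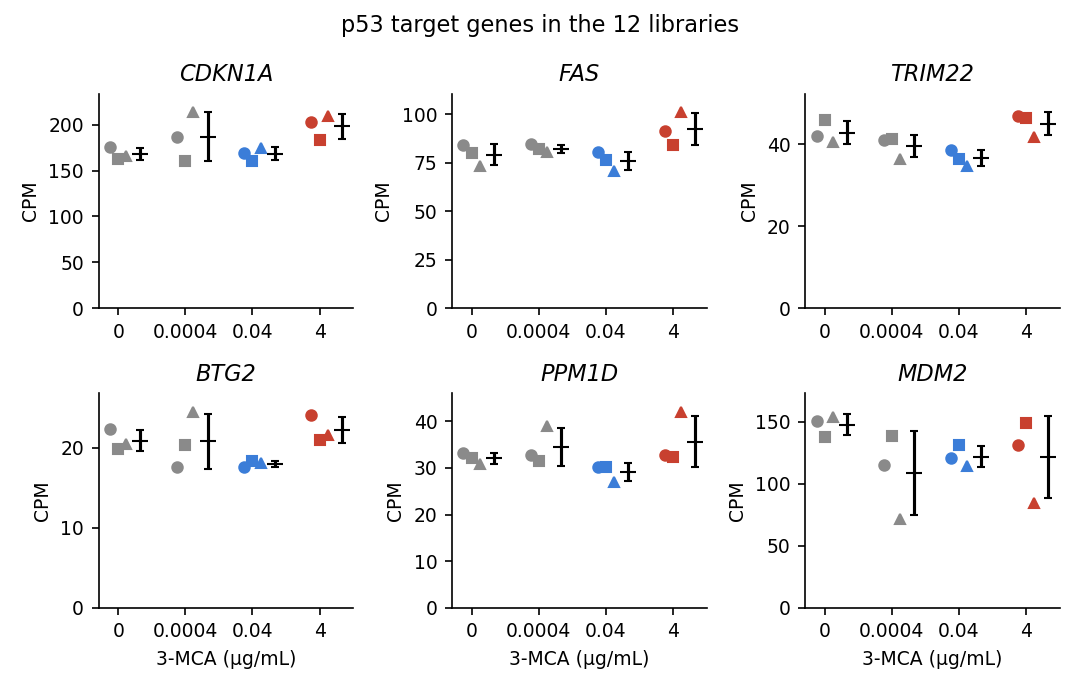
CPM of 6 p53 target genes (vertical axes from 0) in the 12 libraries by concentration of 3-MCA; circles, squares and triangles are replicates 1, 2 and 3, blue is medium, red is high, grey is control and low, and the black bars are the mean ± SD of 3 libraries. In the first 5 genes the red points lie above the blue ones, while those of MDM2 reach from 84.9 to 149 CPM.

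The count of p53 targets above medium depended on the library left out, and it was lowest without high replicate 2. Without high replicate 2, 20 of 38 tested members lay above medium and 18 below, with a median of 0.03. Without medium replicate 1 it was 22 above and 16 below, with a median of 0.05. Without medium replicate 2 it was 29 above and 9 below, with a median of 0.11. The 5 genes kept their direction under each library left out, which their lack of overlap in CPM largely fixed beforehand. Members of the list at an unadjusted p below 0.05 (edgeR) numbered 2 without medium replicate 1 or 2, in place of 5. They numbered 3 without high replicate 1 or 3, 4 without medium replicate 3 and 7 without high replicate 2. For CDKN1A the log2 difference ran from 0.21 to 0.30, for FAS from 0.23 to 0.35, for TRIM22 from 0.29 to 0.36 and for BTG2 from 0.28 to 0.35. PPM1D moved most, from 0.17 without high replicate 3 to 0.39 without high replicate 1.

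Repair genes for bulky adducts differed in both directions, by small medians. Of 26 tested nucleotide excision repair genes 12 lay above and 14 below (median -0.02, from -2.49 to 1.79). GTF2H3 and CDK7 lay above without overlap (7.69% of the members, against 2.18% of all genes). DDB1 and LIG1 lay below without overlap (7.69%, against 3.81% of all genes). GTF2H1, a TFIIH subunit gene, had the only unadjusted p below 0.05 of that list (0.00764), at 23, 1.89 and 19.2 CPM in medium and 1.56, 2.22 and 3.99 CPM in high. Medium replicate 2 stood with the high libraries there, and the gene has a copy in the table, so its level is uncertain. With its entries summed GTF2H1 differed by -2.51 ± 0.74 (unadjusted p = 0.00716, edgeR). Of 15 tested translesion synthesis genes 7 lay above and 8 below. MAD2L2, a subunit of the translesion polymerase zeta, had 47.3, 47.2 and 53.1 CPM in medium and 38.6, 39.6 and 41.9 CPM in high (log2 -0.28 ± 0.10, unadjusted p = 0.0200, adjusted p = 1, edgeR). It was the 1 member without overlap (6.67%, against 3.81% of all genes below). The control mean was 40.5 CPM and the low mean 42.1 CPM, and medium lay above all 9 other libraries in CPM.

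Among 32 genes of recombination and crosslink repair 14 lay above and 18 below. XRCC3, a gene of homologous recombination, had 48.1, 51.7 and 51.2 CPM in medium and 40.5, 42.2 and 40.6 CPM in high (log2 -0.27 ± 0.09, unadjusted p = 0.0108). FANCB, a subunit of the Fanconi anaemia core complex, went the other way with 8.51, 7.58 and 6.31 CPM in medium and 9.08, 10.7 and 9.37 CPM in high (log2 0.41 ± 0.18, unadjusted p = 0.0466). Neither overlapped between the groups and neither passed over all genes (adjusted p = 1, edgeR). Members without overlap made up 3.12% of the list in each direction, against 3.81% below and 2.18% above over all genes. Damage kinases and mediators had 9 of 23 members above and 0 without overlap, against 5.99% of all genes in either direction. Their smallest p was that of ATRIP (1.35 ± 0.79), which had under 3 CPM in every library.

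Base excision and mismatch repair genes lay above medium in 22 of 27 cases, by a median of 0.08. SMUG1 and PARP2 lay above without overlap (7.41% of the members, against 2.18% of all genes), and TDP1, which clears trapped topoisomerase I from DNA ends and had the smallest p, differed by 0.16 ± 0.09 (unadjusted p = 0.0918). Without high replicate 3 the list had 17 members above and 10 below.

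Cell cycle genes were close to level. Of 43 tested genes of G1/S and replication 19 lay above and 24 below (median -0.01), and of 39 tested genes of G2/M and mitosis 23 lay above and 16 below (median 0.04). POLD1, the catalytic subunit of DNA polymerase delta, had 163, 150 and 139 CPM in medium and 133, 122 and 120 CPM in high (log2 -0.25 ± 0.11, unadjusted p = 0.0482). MCM7 and LIG1 also lay below without overlap, so that 6.98% of the list did, against 3.81% of all genes. POLE2 lay above without overlap (2.33%, against 2.18% of all genes). CDC20, an activator of the anaphase-promoting complex, had 560, 533 and 564 CPM in medium and 476, 507 and 481 CPM in high (log2 -0.16 ± 0.08, unadjusted p = 0.0794).

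Transcripts without a poly(A) tail differed more between the high libraries than between the groups. Replication-dependent histone messages end in a stem-loop, so a capture of poly(A) RNA retains little of them. Of 42 tested histone genes 36 lay above medium, with a median log2 difference of 0.39. Library by library, the list's median relative to the medium mean was 0.560, -0.484 and 0.796 in high replicates 1 to 3, and 0.291, 0.0044 and -0.252 in medium. High replicate 2 was thus the lowest of the 6 and high replicate 3 the highest. Without high replicate 3 only 25 of 44 tested members lay above medium (median 0.06), without medium replicate 3 it was 28 of 46 (median 0.09), and without high replicate 2 it was 41 of 46 (median 0.77).

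The 5 tested untailed noncoding RNAs followed the same libraries, at list medians of 1.35, -1.91 and 1.78 in high. Summed, RN7SL1, RN7SL2, RN7SK and RMRP took 0.00987%, 0.00062% and 0.011% of counts in high and 0.00789%, 0.00246% and 0.00248% in medium (difference 0.00288 percentage points, exact permutation p = 0.4, 2-sided; 3 against 3 cannot go below 0.1). The 16S ribosomal RNA of mitochondria took 5.52%, 1.45% and 7.96% in high and 4.80%, 2.73% and 3.13% in medium (difference 1.42 points, exact permutation p = 0.6). With the log2 share of 16S RNA as a covariate, a model added after seeing the data, 24 of 42 histone genes lay above medium and the median was 0.08. The 16S share is not itself a measure of untailed RNA, and any part of carried-over untailed RNA in the histone values was not tested.

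Within the histone list 4 genes had no overlap, namely H2AC12, H2AC20, H2BC4 and H3C8 (9.52% of the members, against 2.18% of all genes). H2BC4 had 1.42, 1.97 and 1.75 CPM in medium and 5.15, 2.22 and 4.43 CPM in high, a log2 difference of 1.2 ± 0.40 (unadjusted p = 0.0113, adjusted p = 1, edgeR). H3C8 had 0.218, 0.152 and 0.0971 CPM in medium and 1.76, 0.353 and 1.04 CPM in high (log2 2.69 ± 0.89, unadjusted p = 0.00669), where the medium values are at or below 3 counts a library. In both genes high replicate 2 was the lowest high library, nearest to medium. Reads of such near-identical genes cannot always be assigned to 1 of them, so single histone values are uncertain.

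Ribosomal protein genes mirrored this spread. Of 75 tested members 5 lay above medium and 70 below, with a median log2 difference of -0.13. The list medians were -0.395, 0.272 and -0.410 in high replicates 1 to 3 and -0.164, 0.059 and 0.110 in medium, so that the high libraries lay on both sides of every medium one. Without high replicate 3 the split was 35 above and 40 below (median -0.01), without high replicate 1 it was 32 and 43 (median -0.03), and without high replicate 2 it was 4 and 71 (median -0.40). With the 16S share as a covariate 67 of 75 lay below (median -0.11), and 19 had an unadjusted p below 0.05 in place of 2. RPL13A, a protein of the large subunit, had 2179, 2093 and 2229 CPM in medium and 1830, 1953 and 1851 CPM in high without overlap (log2 -0.19 ± 0.08, unadjusted p = 0.0341). The control mean of RPL13A was 1882 CPM and its low mean 1915 CPM, and medium lay above all 9 other libraries. RPL4 and RPL41 were among the other members below without overlap (5.33% of the members lay below in this way, against 3.81% of all genes). RPS29, of the small subunit, lay above at 137, 129 and 116 CPM in medium and 139, 155 and 165 CPM in high (log2 0.29 ± 0.10, unadjusted p = 0.0136). The span of RPS29 (chr14:49570988-49598710, minus strand) contains RN7SL1 (chr14:49586580-49586878, plus strand), a 7SL RNA gene. RN7SL1 had 17.6, 5.91 and 2.14 CPM in medium and 21.1, 1.26 and 22.9 CPM in high, and its lowest value was in high replicate 2, where RPS29 had 155 CPM. The part of RN7SL1 reads in the RPS29 values was not tested.

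The part of the counts taken by the mitochondrial genome did not differ beyond the spread between libraries. All its genes together held 19.9%, 18.5% and 23.1% of counts in high and 18.9%, 16.5% and 18.6% in medium, a difference of 2.48 points (exact permutation p = 0.3). High replicate 2 fell inside the medium range, below medium replicates 1 and 3. The 13 coding genes alone held 13.7%, 16.8% and 14.2% in high and 13.5%, 13.4% and 15.1% in medium (difference 0.903 points, exact permutation p = 0.5). In the model 11 of these 13 genes lay above medium, with a median log2 difference of 0.17, and 9 of 13 without high replicate 2 (median 0.07).

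ND1, ND2, ND6 and ATP8 had no overlap in CPM (30.8% of the list, against 2.18% of all genes), and the first 3, chosen after their values were seen, encode subunits of respiratory complex I. ND1 stood at 8653, 9267 and 10296 CPM in medium and 10309, 12335 and 11166 CPM in high, where medium replicate 3 and high replicate 1 nearly met (log2 0.28 ± 0.19, unadjusted p = 0.169). ND6, the coding gene of the light strand, stood at 965, 958 and 868 CPM in medium and 1294, 1152 and 1238 CPM in high (log2 0.42 ± 0.24, unadjusted p = 0.104). ATP8, a subunit of ATP synthase, had 182, 210 and 184 CPM in medium and 243, 506 and 222 CPM in high, so that its log2 difference of 0.78 ± 0.31 (unadjusted p = 0.0293) rested mostly on high replicate 2 and ran from 0.28 to 0.99 with 1 library left out.

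Nuclear genes of the respiratory chain leaned the other way, with 14 of 43 above medium and 29 below (median -0.05). ATP5F1D, an ATP synthase subunit, had 115, 136 and 128 CPM in medium and 95.9, 110 and 91.7 CPM in high (log2 -0.33 ± 0.11, unadjusted p = 0.0136). UQCRC1, a core protein of complex III, had 282, 300 and 295 CPM in medium and 241, 258 and 242 CPM in high (log2 -0.22 ± 0.08, unadjusted p = 0.0242). CYC1, the cytochrome c1 gene, was the third without overlap (6.98% of the members lay below in this way, against 3.81% of all genes). Without high replicate 1 the list had 27 members above and 16 below (median 0.03), and without high replicate 3 it had 21 above and 22 below.

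Lists of glycolysis, sterol synthesis, ER chaperones and the proteasome each had more members below medium than above. GPI, a glycolytic isomerase, had 256, 266 and 296 CPM in medium and 200, 231 and 174 CPM in high (log2 -0.42 ± 0.13, unadjusted p = 0.00747), and it also has a second entry, with which its summed difference was -0.40 ± 0.13. Without that entry the control mean was 217 CPM and the low mean 230 CPM, and medium lay above all 9 other libraries. Of 26 tested genes of glycolysis and hypoxia 20 lay below medium (median -0.09), and the median was -0.23 without high replicate 2, -0.05 without high replicate 1 and -0.06 without high replicate 3 or medium replicate 2. ACAT2, an acetyl-CoA thiolase of the sterol pathway, had 54.0, 53.8 and 54.2 CPM in medium and 39.8, 46.9 and 42.7 CPM in high (log2 -0.30 ± 0.11, unadjusted p = 0.0159). Of 29 tested genes of cholesterol and fatty acid synthesis 20 lay below (median -0.08), and 14 of 29 did without high replicate 3. ER chaperones had 16 of 23 members below (median -0.11; -0.19 without high replicate 2, -0.04 without high replicate 3 and -0.07 without medium replicate 2). PDIA6 and DNAJB11 lay below without overlap (8.7% of the members, against 3.81% of all genes). Proteasome subunits had 24 of 34 below (median -0.05, from -0.07 to -0.03 with 1 library left out), with PSMC3, PSMD2 and PSMD3 without overlap (8.82%).

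The B cell, interferon and NF-kB lists had more members above medium than below, by small medians. Of 26 tested B cell genes 18 lay above medium (median 0.07), and the tetraspanin gene CD37 had 150, 160 and 145 CPM in medium and 162, 167 and 169 CPM in high (log2 0.15 ± 0.09, unadjusted p = 0.120). CD37 and FCRLA lay above without overlap (7.69% of the members, against 2.18% of all genes). CD74, the invariant chain of class II antigen presentation and chosen after its values were seen, had 818, 1190 and 989 CPM in medium and 659, 1524 and 484 CPM in high. The high libraries thus held both the lowest and the highest CD74 level of the 6 (log2 -0.14 ± 0.41). Of 26 tested interferon-stimulated genes 21 lay above (median 0.16), and 15 of 27 without high replicate 2 (median 0.04). IFIT2 and GBP1 lay above without overlap (7.69% of the members, against 2.18% of all genes). The antiviral gene IFIT2 had 1.09, 1.97 and 1.17 CPM in medium and 2.78, 2.02 and 2.26 CPM in high (log2 0.74 ± 0.37, unadjusted p = 0.0659). GBP1, an interferon-induced GTPase gene chosen after its values were seen, had 26.4, 25.2 and 24.0 CPM in medium and 31.1, 27.8 and 26.9 CPM in high (log2 0.20 ± 0.12, unadjusted p = 0.127). In the NF-kB list 14 of 22 members lay above, and TRAF2, an adaptor of TNF receptors, lay below without overlap at 48.9, 47.8 and 49.9 CPM in medium and 44.1, 40.1 and 39.6 CPM in high (log2 -0.22 ± 0.10, unadjusted p = 0.0467). TNIP2 also lay below in this way (9.09% of the members, against 3.81% of all genes), and REL lay above (4.55%, against 2.18%).

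Genes with a near-identical relative or a second entry in the table were frequent among the smallest p-values. The smallest among genes without a second entry was that of EIF3CL (chr16:28379581-28426418), a near-identical relative of EIF3C (chr16:28688558-28735730), which encodes a subunit of translation initiation factor 3. EIF3CL had 21.1, 31.5 and 27.4 CPM in medium and 7.86, 7.61 and 6.6 CPM in high, a log2 difference of -1.83 ± 0.30 (unadjusted p = 7.95e-05, adjusted p = 0.478, edgeR). The groups were far apart, but the control mean was 9.82 CPM and the low mean 13.8 CPM, and medium lay above all 9 other libraries. EIF3C had 15.2, 16.7 and 17.4 CPM in medium and 17, 28.6 and 15 CPM in high. Summed, the 2 genes had 36.2, 48.2 and 44.8 CPM in medium and 24.9, 36.2 and 21.6 CPM in high, a log2 difference of -0.62 ± 0.30 (unadjusted p = 0.0612), with high replicate 2 level with medium replicate 1.

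GTF2H2C, a TFIIH subunit gene, showed a similar division between a primary chromosome and an alternate contig. Its second copy entry, GTF2H2C_2, had 5.46, 8.19 and 6.6 CPM in medium and 0.136, 0 and 1.22 CPM in high (log2 -4.00 ± 0.91, unadjusted p = 0.00134, adjusted p = 1, edgeR). The entry on the primary chromosome, named after its values were seen, went the other way with 5.24, 3.11 and 5.44 CPM in medium and 8.40, 6.65 and 6.77 CPM in high. With all entries summed the gene had 12.7, 12.9 and 13.2 CPM in medium and 10.7, 10.2 and 12.4 CPM in high, a difference of -0.20 ± 0.18. CCL3, a chemokine gene, kept its difference when its entries were summed, at 15.3, 14.1 and 24.7 CPM in medium and 0.271, 0.202 and 0.521 CPM in high (log2 -5.79 ± 1.15, unadjusted p = 0.000303, adjusted p = 1, edgeR). The controls had 0.422, 0.845 and 0.659 CPM and the low libraries 0.202, 11.1 and 0.646 CPM, so that low replicate 2 lay nearest to medium and the other low libraries near high. SMN2_2, a copy entry of the survival motor neuron gene, differed by 1.55 ± 0.36 alone and by -0.12 with the copies summed. Genes with a copy made up 6.69% of the genes tested and 33.8% (76) of the 225 with an unadjusted p below 0.05, and their median SE was 0.630 against 0.189 for the others.

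**Figure D3:**
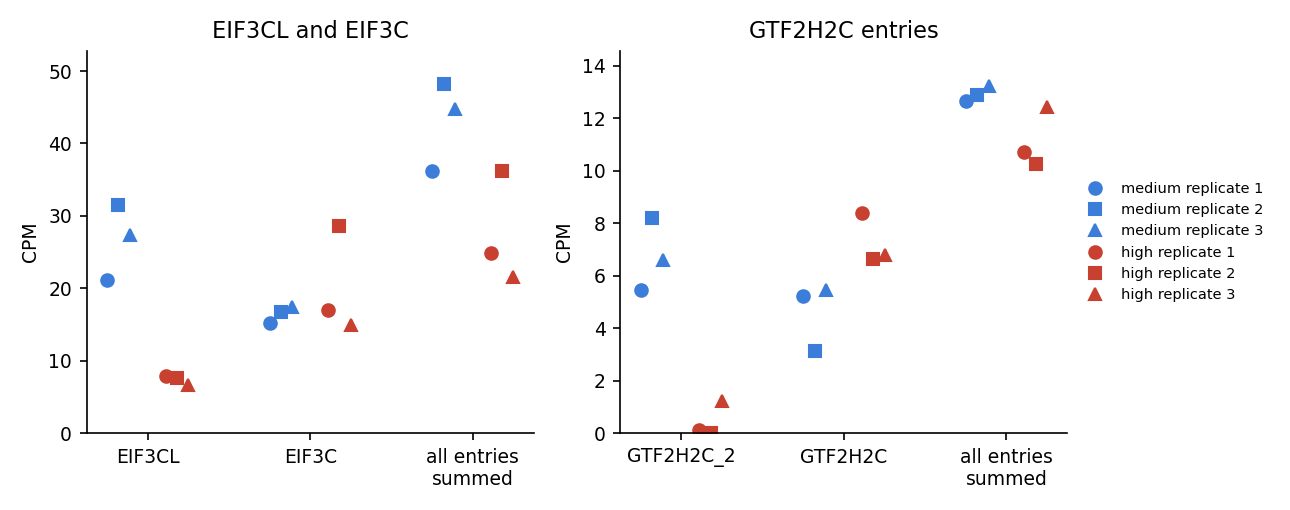
CPM (vertical axes from 0) of EIF3CL, EIF3C and their sum, and of 2 entries of GTF2H2C and the sum of all its entries, in the medium (blue) and high (red) libraries; marker shapes are replicates. EIF3CL and GTF2H2C_2 are apart between the groups, and the sums are closer together.

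Of the genes with no such relative, ARFRP1, which encodes a small GTPase of the Golgi, combined a small p with tight replicates. It had 68.1, 67.5 and 66.7 CPM in medium and 53.3, 48.4 and 55.8 CPM in high, below all 9 other libraries (log2 -0.34 ± 0.08, unadjusted p = 0.00165, adjusted p = 1, edgeR). LRWD1, an origin recognition complex partner, had 39.1, 40.2 and 39.9 CPM in medium and 31.1, 33 and 31.6 CPM in high (log2 -0.30 ± 0.09, unadjusted p = 0.00599). ENGASE, an endoglycosidase, had 8.40, 8.34 and 6.70 CPM in medium and 5.01, 3.98 and 4.08 CPM in high (log2 -0.82 ± 0.19, unadjusted p = 0.00102). The mitochondrial enzyme genes ETFB (-0.36 ± 0.11) and MECR (-0.41 ± 0.12), the filament-like gene IFFO1 (-0.42 ± 0.13) and the low gene UBAP1L (-1.69 ± 0.47) completed the 8 lower genes with the smallest p (unadjusted p = 0.00596, 0.00607, 0.00712 and 0.00378). For IFFO1 the means were 12 CPM in control, 9.96 CPM in low, 16.1 CPM in medium and 11.8 CPM in high, and medium lay above all 9 other libraries.

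The 8 higher genes with the smallest p were TRIM22, FAS, H3C8 and the 5 that follow, of which 4 had under 7 CPM in every library. CAMK1, a calmodulin-dependent kinase gene, had 0.218, 0.303 and 0.388 CPM in medium and 1.42, 0.655 and 1.56 CPM in high (log2 1.96 ± 0.51, unadjusted p = 0.00200), and its control and low means, 0.937 and 0.908 CPM, lay nearer to high. LRRC23 had 2.95, 4.09 and 3.50 CPM in medium and 5.69, 5.90 and 6.25 CPM in high (log2 0.78 ± 0.24, unadjusted p = 0.00860). C9orf40 had 20.4, 19.5 and 19.7 CPM in medium and 25.4, 22.4 and 27.9 CPM in high (log2 0.37 ± 0.12, unadjusted p = 0.00939), and the uncharacterised LOC107987142 and LOC100134868 differed by 1.38 ± 0.40 and 2.13 ± 0.63 (unadjusted p = 0.00496 and 0.00533). None of these passed over all genes (adjusted p = 1, edgeR).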

How the data were processed

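Total RNA was isolated with an RNeasy Mini kit, a KAPA capture kit selected poly(A) RNA, and a DNBSEQ-G400RS made the paired reads, per the labels' protocols. Tools in the submitters' processing notes are HISAT2 2.2.1 and featureCounts 2.0.6 on the build GRCh38.p14, with fastp 0.23.4 and MultiQC 1.27; their options are not stated in these sources. Raw read counts for 50006 genes were deposited by the authors as 1 table, with CPM values for each library, which equal count over library total within 5.0e-05 CPM. In each CPM file 51 gene names differ from those of the count table, whose names and counts were used. Of the values from 1 to 10, 68.7% are even; whether both reads of a pair were counted was not tested. The table lists 5953 names with a copy suffix, for genes of alternate contigs.

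Genes were kept with filterByExpr on group, scaled with TMM factors and tested with edgeR 4.0.16 (glmQLFit, glmQLFTest; R 4.3.3), in a single model of the 12 libraries (8 residual degrees of freedom), contrast high minus medium, and Benjamini-Hochberg adjustment over all 12030 genes at 0.05. Intervals are at 95%. Shares of counts were compared with an exact permutation test, 2-sided. The scripts were tested on simulated data. Overlap between groups was judged on CPM, and single values are CPM computed from the counts. Lists are described by counts and medians without a test. The libraries, the genes and the lists were chosen with earlier results of these data known.

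The text names 8 fixed genes (CYP1A1, CYP1B1, AHR, AHRR, TIPARP, NQO1, CDKN1A and MDM2), the 8 genes per direction with the smallest p among those without a copy, the 2 per direction among those with one, and per list up to 3 members with an unadjusted p below 0.05 or else the member with the smallest p; some genes that this rule or the lists hold are not reported here. Alternatives were other size factors, filters and tools (DESeq2 1.42.0, limma 3.58.1), a replicate block, thinning, counts divided by 2, fewer genes or libraries and each library left out. Added after seeing the data were copy entries summed with their gene and the 16S share as a covariate. Promoter windows of 2 of 2 genes asked for were matched in RefSeq's table.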

Additional observations from a re-analysis of the deposited data

How the results depend on the processing

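The number of genes called was 0 in the model described and in the runs with other size factors, thinned counts, counts divided by 2, a minimum of 10 CPM, voom, limma-trend with a pseudocount of 0.1 and each library left out (0 to 0). It was 4 without a filter, 3 with only the 6 libraries compared, 4 with DESeq2 on all genes of the table, 1 with limma-trend on log2(CPM + 1) and 3 with the 16S share as a covariate. EIF3CL was called in 4 of these 5 runs (edgeR or DESeq2 adjusted p from 5.79e-05 to 0.0479), and the other calls were genes with a copy, such as CCL3_2, RABGGTA and GTF2H2C_2. Genes at an unadjusted p below 0.05 numbered 225, but 800 without high replicate 2 and 763 with the 16S covariate. Genes without overlap numbered 720, against 1206 without a filter, 444 at 10 CPM or more and 1390 to 4204 with 1 library left out, the highest without high replicate 2; fewer libraries make an overlap less frequent by construction.

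With 1 library left out the difference in 16S share ran from -0.0681 points (without high 3) to 3.19 (without high 2), and that of the coding share from -0.0541 (without high 2) to 1.53 (without high 1). Of the named genes, MDM2 turned to -0.00765 without a composition factor, -0.0209 with voom, -0.0452 and -0.0458 with limma-trend at pseudocounts of 1 and 0.1, and ran from -0.178 to 0.210 with 1 library left out, below 0 without medium 3, high 1 or high 2. NQO1 turned to 0.00166 with the 16S covariate and ran from -0.313 (without high 2) to 0.115 (without high 3). With 1 library left out CD74 ran from -0.802 to 0.153, TRAC from -0.192 to 0.705, HBG2 from -0.428 to 0.656 and EIF3C from -0.0300 to 0.496, where the lowest value of each came without high 2. With copies summed SMN2_2 turned to -0.119, EIF3C to -0.619 and GTF2H2C to -0.200. The cause of these turns was not tested.

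Same-numbered libraries of high and medium had correlations of their deviations from the group means of 0.149, 0.330 and -0.0565 for numbers 1 to 3, so the numbers were not treated as pairs. With a replicate block 0 genes were called in either fit, with 223 (12 libraries) and 174 (6 libraries) at an unadjusted p below 0.05, and under the block MDM2 turned to -0.0158 and -0.0227. High replicate 3 correlated best with medium replicate 1 (0.355), not with its own number. Low counts set the limit for genes such as CYP1A1, for which no difference was detectable at this depth, and intervals wider than 2-fold remained for the genes not counted among the 9021.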

Other observations

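Stress and survival genes outside the groups above were also near their medium level. Of 23 tested genes of ATF4 and amino acid stress 11 lay above medium and 12 below, with 0 without overlap, against 5.99% of all genes. Aminoacyl-tRNA synthetases had 8 members above and 12 below, and the smallest p was that of CARS1 (1.14 ± 0.42, SE; unadjusted p = 0.0204, edgeR), which has a copy and is uncertain. With its entries summed CARS1 differed by 0.15 ± 0.43 (unadjusted p = 0.732, edgeR). Heat shock chaperones had 14 of 19 above (median 0.07). AHSA1, the activator of HSP90, was the 1 member without overlap (5.26%, against 2.18% of all genes above). The co-chaperone gene CHORDC1, which has a copy, had the smallest p of the list (1.69 ± 0.92, and 3.39 without medium replicate 1). Without high replicate 3 that list had a median of 0.01. Genes of lipid efflux and fatty acid oxidation had 8 of 12 above (median 0.04), and HADHA, of mitochondrial fatty acid oxidation, differed by -0.15 ± 0.14. Of 21 tested immediate early genes 12 lay above (median 0.06), and KLF6 had 24.4, 24.6 and 20.7 CPM in medium and 33.1, 19.6 and 30.7 CPM in high, with high replicate 2 below every medium library. BCL2 family and death genes had 22 of 29 above (median 0.03), but 12 of 30 without high replicate 2 and 14 of 30 without medium replicate 1. FAS was the only member of that list without overlap (3.45%, against 2.18% of all genes above).

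Among the copied genes of these lists, PSME1, a proteasome activator subunit, had 28.2, 51.7 and 2.33 CPM in medium and 1.76, 3.18 and 1.39 CPM in high, and NSDHL, of the sterol pathway, had 2.18, 9.85 and 16 CPM in medium and 0.813, 0.706 and 1.56 CPM in high. Medium replicate 3 of PSME1 and medium replicate 1 of NSDHL stood next to the high libraries. P4HB, a protein disulfide isomerase, differed by -0.19 ± 0.10. Plasma cell genes had 5 of 10 above, and SSR4, of the translocon, differed by -0.20 ± 0.12. Of the markers of other cell types, 2 T and NK cell, 4 myeloid, 1 erythroid and 6 stromal and epithelial genes of the longer lists had enough counts to test. Of these, 1 of 2, 2 of 4, 1 of 1 and 2 of 6 lay above medium, the last list with a median of -0.07 and a summed level of 578.7 to 611.2 CPM in medium and 532.7 to 598.5 CPM in high. Their members with the smallest p were TRAC (0.42 ± 0.43), CD68 (-0.27 ± 0.17), HBG2 (0.38 ± 0.61) and COL1A1 (0.64 ± 0.36). None of them passed over all genes (edgeR adjusted p = 1).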
